A study of Homo sapiens with 6 samples.

Results

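Histone genes encode the proteins that package DNA into nucleosomes. Here they were the rows of a gene expression table whose symbol begins with an approved or older histone gene name, and rows named as pseudogenes were dropped. This choice used symbols alone and gave 45 of the 15706 genes in the table. Of these, 34 were replication-dependent genes, of the types H1, H2A, H2B, H3 and H4, and 11 were variant genes. A further 2 rows matched the symbols and were dropped as pseudogenes. H2AX and H2AJ were counted as variants.

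The RNA came from MDA-MB-231, an established triple-negative line of human breast cancer, and 6 libraries were sequenced. The 3 control libraries are labelled wild type and carried the guide sgNT, and the 3 knockout libraries are labelled MLL3 knockout and carried the guide sgMLL3. All cells were untreated and grown in DMEM with fetal bovine serum. The labels call the 3 libraries of a group biological replicates. The cut exon is not named, and neither is whether a library came from 1 clone or from a pool, or whether guides numbered within a group had different sequences. Nothing in the labels says that the replicates came from separate cultures, so p-values measure the spread between these libraries, which may be technical. MLL3 (approved symbol KMT2C) is a methyltransferase of lysine 4 on histone H3.

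Replication-dependent histone genes lie mostly in clusters, have no introns in their classical form and are transcribed in S phase, when new DNA needs nucleosomes. Their messenger RNAs normally end in a conserved stem-loop in place of a poly(A) tail, and the stem-loop binding protein and the U7 small nuclear RNP act on that end. Variant histone genes are scattered, mostly make polyadenylated messages throughout the cell cycle, and supply proteins with particular roles, such as H2A.Z at promoters, H3.3 in active chromatin, macroH2A in repressed chromatin and H2A.X at DNA breaks.

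The stem-loop is shown first, because it is the known end of replication-dependent messages. A transcript was searched on its sense strand for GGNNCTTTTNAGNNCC, where N is any base. Annotated transcripts of 45 of 15683 genes held it (0.287%), and 17 of those genes were histone genes: 16 of the 34 replication-dependent genes (47.1%) and 1 of the 11 variants, H2AX. In each of the 17 the match lay after the coding sequence. A gene without a match is one whose annotated transcript does not hold these letters, and the longest annotated transcript of 12 replication-dependent genes held coding sequence only. The sites below, from GENCODE 29 transcripts on GRCh38, belong to H2AX, to H4C9, the highest H4 gene, and to the 4 replication-dependent genes that passed a test without control replicate 1. H2BC12 and H1-2, the highest genes of that class, have no match in their annotated transcripts, and H2BC15 has one that is not shown. Capitals mark the match.

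H2AC6, chr6:26124664-26124689, plus strand: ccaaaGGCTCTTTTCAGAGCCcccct
H2BC4, chr6:26123467-26123492, minus strand: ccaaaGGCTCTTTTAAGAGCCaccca
H2BC5, chr6:26158582-26158607, plus strand: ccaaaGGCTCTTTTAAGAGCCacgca
H2BC18, chr1:149811880-149811905, minus strand: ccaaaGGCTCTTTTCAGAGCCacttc
H4C9, chr6:27139649-27139674, plus strand: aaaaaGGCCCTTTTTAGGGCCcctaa
H2AX, chr11:119094893-119094918, minus strand: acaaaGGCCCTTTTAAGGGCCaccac

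In the annotation the H2AC6, H2BC18 and H2AX transcripts run on for 1128, 1479 and 1044 bases after the match, whereas the H2BC5 transcript ends 39 bases after it. The kit is not described beyond standard Illumina protocols. Whether the RNA was selected for poly(A) tails is therefore not given in the sources used here, and levels of the replication-dependent messages are levels in these libraries.

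Levels are normalized read counts, that is, the reads of a gene divided by the size factor of its library. The libraries held 41240265 to 49514464 reads in the listed genes. As a check of the cells, VIM and CD44 were read as markers of mesenchymal-like breast cancer cells. They stood at 20718 to 24497 and 17394 to 19463 normalized counts in the 6 libraries, and EGFR at 7577 to 8319. ERBB2, chosen as a receptor that is low in a triple-negative line, stood at 4581 to 6016. That is above the median of 922 over all genes tested, so this marker was not low. ESR1 and PGR were not among the rows used here. Leukocyte, fibroblast and endothelial markers were low: PTPRC stood at 197 to 302, PECAM1 at 43.4 to 94.7 and PDGFRB at 457 to 701, while PDGFRA, DCN, LUM and CDH5 were not among the rows used here. PDGFRB was lower in every knockout library (518, 515 and 457) than in every control (684, 691 and 701), a log2 difference of -0.48 (SE 0.11, limma adjusted p = 0.00456). The 3 leukocyte markers summed to 377, 354 and 423 in the controls and 277, 238 and 333 in the knockouts, with 0 of 3 called. The part of these markers in the results was not tested. KMT2C, the targeted gene, had 1367, 1379 and 1255 counts in the controls against 1519, 1660 and 1339 in the knockouts, a log2 difference of 0.17 (SE 0.10, limma adjusted p = 0.205), and its transcript gave no check of the label.

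Variant genes supplied nearly all of the histone reads. Over the 6 libraries the replication-dependent genes held 7.71% of the normalized counts of all 45 genes, and all 45 together took 0.319% to 0.380% of a library. Of the 11 variants, 9 had a mean of at least 1000 normalized counts. H3-3B, which encodes histone H3.3, was the highest at 33887, and H2AX stood at 19232. H2AZ1 and H2AZ2, the H2A.Z genes, stood at 17316 and 11688, MACROH2A1 at 15078, H3-3A, the other H3.3 gene, at 7916, the linker histone gene H1-10 at 6220 and H2AJ at 2192. H3-5 stood at 285 and MACROH2A2 at 16.6.

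Among the replication-dependent genes, the 6 highest held 88.5% of the counts of the class. Only H2BC12, H1-2 and H2AC6 reached a mean of 1000, at 4170, 3324 and 1234 normalized counts. H4C9 followed at 719, H2BC5 at 598 and H2BC11 at 170, and 25 of the 34 genes stood under 100. The lowest were H4C1 at 4.93 and H3C12 at 6.64. Means ranged from 12.3 to 1234 among the 11 genes with over 100 bases of transcript after the stem-loop match, and from 9.89 to 598 among the 5 with at most 100 bases after it. The 18 genes with no match ranged from 4.93 to 4170, so the ranges of the 3 sets overlapped.

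Levels of different genes were compared per kb of annotated exon. On that scale H2AX led with 11916 normalized counts per kb, and H2BC12 had 10945, H2AZ1 7519, H3-3B 5524 and H1-2 5178. The median was 2516 counts per kb over the variants and 53.0 over the replication-dependent genes. The annotated models of H2BC12 and H1-2 hold coding sequence only, so their length may be understated and their place in this order overstated. Of the 50-base stretches in the H2BC12 transcript, 74.1% also occur in transcripts of other genes, mostly H2B genes, so its count is uncertain. The same share was above 25% in 11 of the 45 genes and 100% in H2AC18, H2BS1 and H4C12, and how reads that map to several places were counted is not given in the sources used here.

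**Figure D1:**
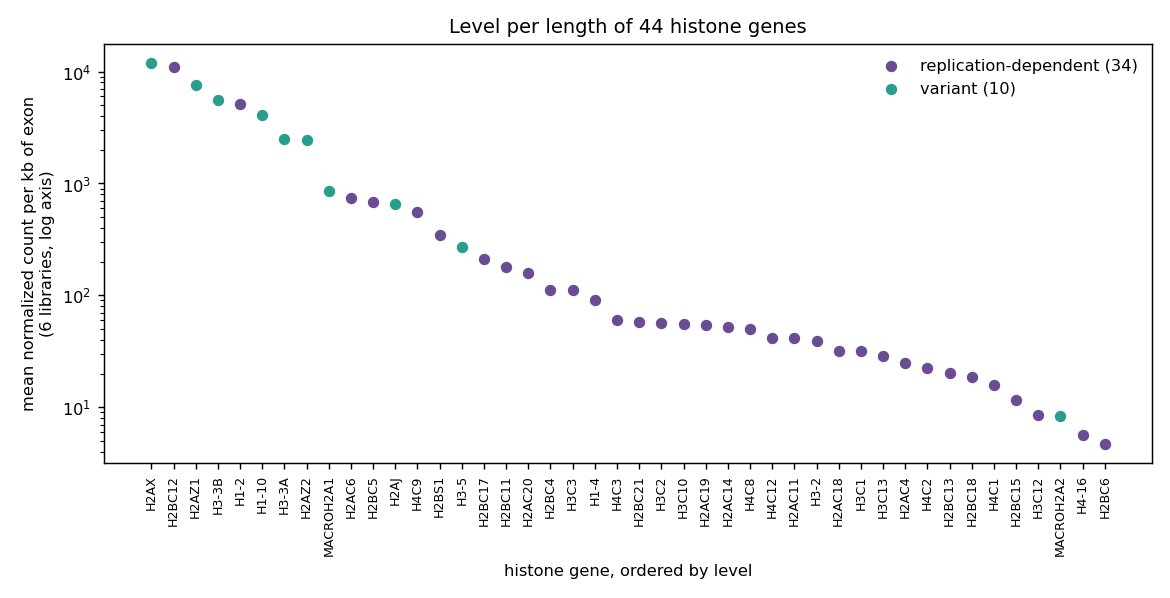
Each point is 1 of 44 histone genes, placed by its mean normalized count per kb of annotated exon over the 6 libraries (log axis), with variants in green and replication-dependent genes in purple. H2AX stands highest at 11916, and H2BC12 and H1-2 are the only replication-dependent genes above 1000 on this scale.

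The comparison of knockout with control asks which histone genes differ in the libraries labelled MLL3 knockout. Genes with a mean of at least 10 normalized counts over the 6 libraries were tested with limma on log2(normalized count + 1), 3 libraries against 3, two-sided. P-values were adjusted over all 14618 genes tested by the Benjamini-Hochberg method, with a threshold of 0.05. Differences are knockout minus control on that log2 scale, which understates changes of low genes. All 11 variants and 29 of the 34 replication-dependent genes passed the filter; H4C1, H3C12, H2AC4, H2BC13 and H4C2 did not.

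H1-10 and H2AX fell in the knockout libraries, and no other histone gene passed the threshold. In the same test 14.4% of all genes were lower and 18.9% higher, 33.2% in all. The count of 2 lower among 11 variants is therefore near the share of all genes, and 0 higher of 40 and 0 lower of 29 replication-dependent genes lie below it. In libraries made from many cells, fewer cells with a message and less of it per cell cannot be told apart.

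H2AX encodes H2A.X, the H2A variant that is phosphorylated around DNA double-strand breaks. It is a gene of 1 exon on chromosome 11 (ENSG00000188486.3, chr11:119093854-119095467 on GRCh38, minus strand). The control libraries held 24000, 19722 and 21699 normalized counts and the knockout libraries 14896, 16385 and 18688. Every knockout library lay below every control library, with knockout replicate 3 nearest to the controls. The means were 21807 ± 2141 and 16656 ± 1911 (SD, n = 3 each), and the log2 difference was -0.39 (SE 0.093, 95% interval -0.59 to -0.20, limma adjusted p = 0.00471), a ratio of 0.763. The authors' deposited table gives -0.39 for this gene, with an adjusted p-value of 0.00136 from DESeq2.

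H1-10 encodes the linker histone H1.X, which binds DNA between nucleosomes and is made outside S phase as well. It too has 1 exon, on chromosome 3 (ENSG00000184897.6, chr3:129314771-129316277, minus strand). The control libraries held 6752, 6794 and 7774 normalized counts and the knockout libraries 4662, 5118 and 6220. Again the groups did not overlap, and replicate 3 was the highest library in each group. The means were 7107 ± 578 and 5333 ± 801 (SD, n = 3 each), and the log2 difference was -0.42 (SE 0.099, 95% interval -0.63 to -0.21, limma adjusted p = 0.00442), a ratio of 0.747. The authors' deposited table gives -0.41, with an adjusted p-value of 0.00138 from DESeq2. H1-10 overlaps the annotated gene H1FX-AS1 on the opposite strand, and the strand setting of the counting is not given, so reads of the 2 genes cannot be told apart. In all, 13 of the 45 histone genes overlap another annotated gene on either strand. Among them are H2AZ1, H2BC5, H2BC18, H3-3A, H3-3B and MACROH2A1, whose counts may also hold reads of their neighbours.

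The promoters of both genes are shown because both genes passed the threshold, and shared regulation was not tested. Each line holds the 250 bases before the RefSeq start on GRCh38.p14, and capitals mark the letters CCAAT and TATAAA on either strand (ATTGG is CCAAT read on the other strand).

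H2AX, chr11:119095466-119095715, minus strand: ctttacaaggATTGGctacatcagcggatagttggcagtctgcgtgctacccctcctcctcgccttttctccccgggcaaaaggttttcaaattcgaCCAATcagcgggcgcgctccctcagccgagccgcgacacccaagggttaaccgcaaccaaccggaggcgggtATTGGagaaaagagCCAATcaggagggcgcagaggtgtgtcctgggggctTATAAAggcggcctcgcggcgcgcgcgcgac
H1-10, chr3:129316287-129316536, minus strand: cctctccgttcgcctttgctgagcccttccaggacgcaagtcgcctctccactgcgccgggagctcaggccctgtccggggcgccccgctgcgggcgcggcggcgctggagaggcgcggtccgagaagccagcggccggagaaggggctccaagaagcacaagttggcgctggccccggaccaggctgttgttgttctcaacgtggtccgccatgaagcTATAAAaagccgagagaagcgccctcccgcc

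H2AX has 4 CCAAT matches and 1 TATAAA match in this window, and H1-10 has 0 and 1. Over windows of 300 bases, from 250 before the start to 50 after it, CCAAT occurs in 34.6% of all 35116 RefSeq promoters and in 26 of 30 replication-dependent and 7 of 9 variant promoters that could be matched. TATAAA occurs in 11.5% of all promoters, in 24 of 30 and in 4 of 9. Both motifs were searched on both strands and matches were allowed to overlap. These matches describe the sequence and no binding was measured.

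The other 9 variants did not pass the threshold. MACROH2A1, which encodes the main macroH2A, stood at 16292, 14864 and 15538 in the control libraries and at 14426, 14672 and 14678 in the knockout libraries. The groups did not overlap, and the log2 difference was -0.09 (SE 0.075, limma adjusted p = 0.357). In all, 4 of 11 variants had every knockout library below every control, against 22.4% of all genes tested.

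In the deposited values the H3.3 and H2A.Z genes lay close together in the 2 groups. H3-3B stood at 35570, 32845 and 31831 in the control libraries and at 34730, 33895 and 34450 in the knockout libraries. Its log2 difference of 0.04 had a 95% interval of -0.12 to 0.20. H2AZ1 differed by -0.07 (95% interval -0.24 to 0.09), H2AZ2 by -0.12 (-0.31 to 0.07) and H3-3A by 0.08 (-0.11 to 0.27). No value here was called. In 8 of the 11 variants the interval lay within a 1.5-fold change in either direction. MACROH2A2, at 11.5 to 25.1 normalized counts per library, had the widest interval among the variants, from -1.22 to 0.66.

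**Figure D2:**
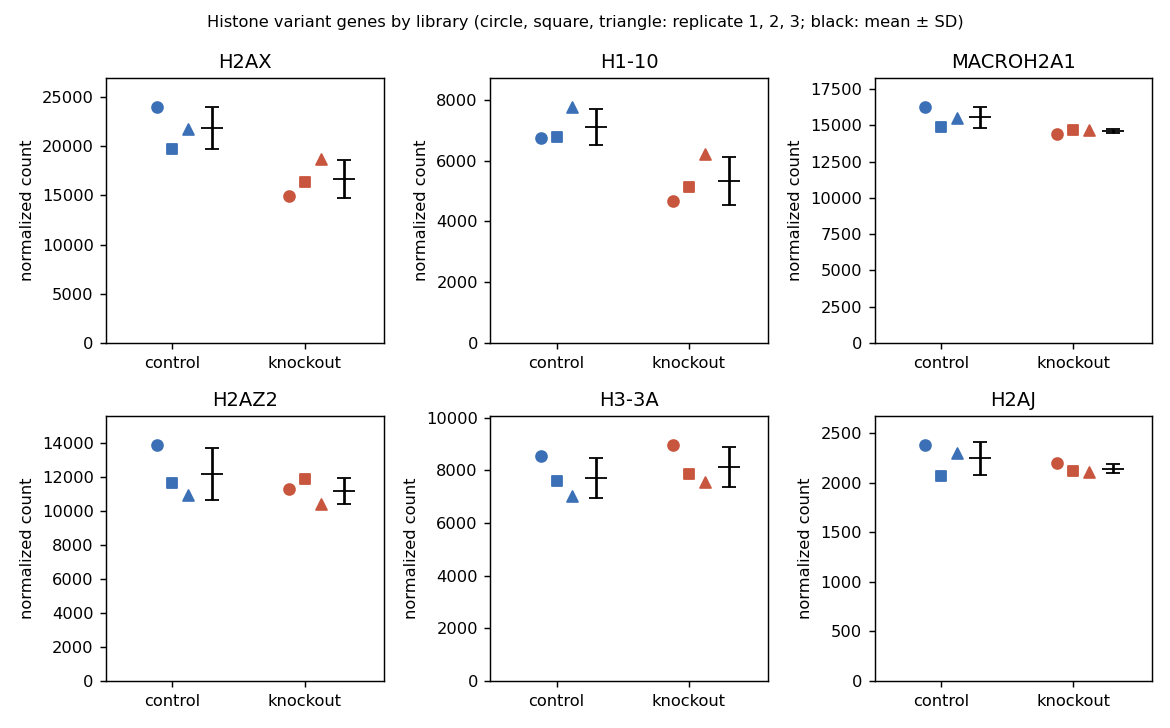
Normalized counts of 6 variant genes in each library (blue control, red knockout; circle, square and triangle are replicates 1, 2 and 3) with the mean and SD of 3 libraries in black and axes that start at 0. In H2AX and H1-10 every knockout library lies below every control library, while in H2AZ2, H3-3A and H2AJ the groups overlap.

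Both genes that fell have GC-rich transcripts, and the difference between the groups followed GC content over all genes. H1-10 and H2AX have 68.6% and 66.4% GC in their longest transcripts, the highest among the variants. Of the replication-dependent genes tested, H3C13 has 67.4% GC, in a model that holds coding sequence only. H3C13 differed by 0.26 (limma adjusted p = 0.765), with an interval from -0.97 to 1.49. Its mean was 11.7 normalized counts, and 80.4% of its 50-base stretches also occur in transcripts of other genes. With an interval this wide, H3C13 cannot show whether a GC-rich gene of that class follows the trend. Of the 205 tested genes with a GC content between those of H2AX and H1-10, 40.5% were called lower and 0 higher, with a median log2 difference of -0.26. The trend along GC content and transcript length was therefore also removed within each library with natural splines, and the test was repeated over 14600 genes. Which of the 2 analyses is nearer to the levels in the cells was not tested.

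After this removal H2AX differed by -0.13 (SE 0.074, limma adjusted p = 0.295) and its groups overlapped. H1-10 differed by -0.17 (SE 0.054, adjusted p = 0.0637) and its groups still did not overlap. Neither passed the threshold. In the same GC band 5.37% of genes were then called lower, with a median of -0.02.

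In that analysis 4 other variants fell instead: MACROH2A1, H2AZ2, H3-3A and H2AJ. MACROH2A1 differed by -0.34 (SE 0.057, adjusted p = 0.00475), H2AZ2 by -0.35 (SE 0.067, adjusted p = 0.00855), H3-3A by -0.24 (SE 0.051, adjusted p = 0.014) and H2AJ by -0.32 (SE 0.072, adjusted p = 0.0176), all from limma. After removal the deviations of MACROH2A1 from its mean over the 6 libraries were 0.18, 0.08 and 0.24 in the controls and -0.19, -0.21 and -0.10 in the knockouts on the log2 scale. In the values with the trend removed the groups overlapped in none of these 4 genes. The genes were picked by the test on those same values, so the lack of overlap is no further support. The share of all genes without overlap in those values is not given here. In the deposited values the groups overlapped in H2AZ2, H3-3A and H2AJ. MACROH2A1 passed in all 8 settings with the trend removed (adjusted p up to 0.0452 in limma), and it was the 1 variant called when knockout replicate 1 or knockout replicate 3 was left out. H2AZ2 also passed without knockout replicate 2, and H2AZ2 and H3-3A without control replicate 3.

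These 4 genes have AT-richer transcripts, with 44.0%, 43.1%, 40.5% and 42.6% GC. As deposited, H2AZ2, H3-3A and H2AJ differed by -0.12, 0.08 and -0.07. Of the 2245 tested genes with a GC content between those of H3-3A and MACROH2A1, 38.1% were higher and 1.07% lower as deposited, with a median log2 difference of 0.26. After removal 9.22% of that band was lower and its median was -0.002. The 4 of 11 variants compare with 5.95% of all genes called lower in that analysis, and 0 of 40 histone genes with 4.08% called higher. The longest annotated transcript of MACROH2A1, from which its GC content was taken, has 10982 bases in 4 exons, and other transcripts of the gene may hold most of the reads.

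**Figure D3:**
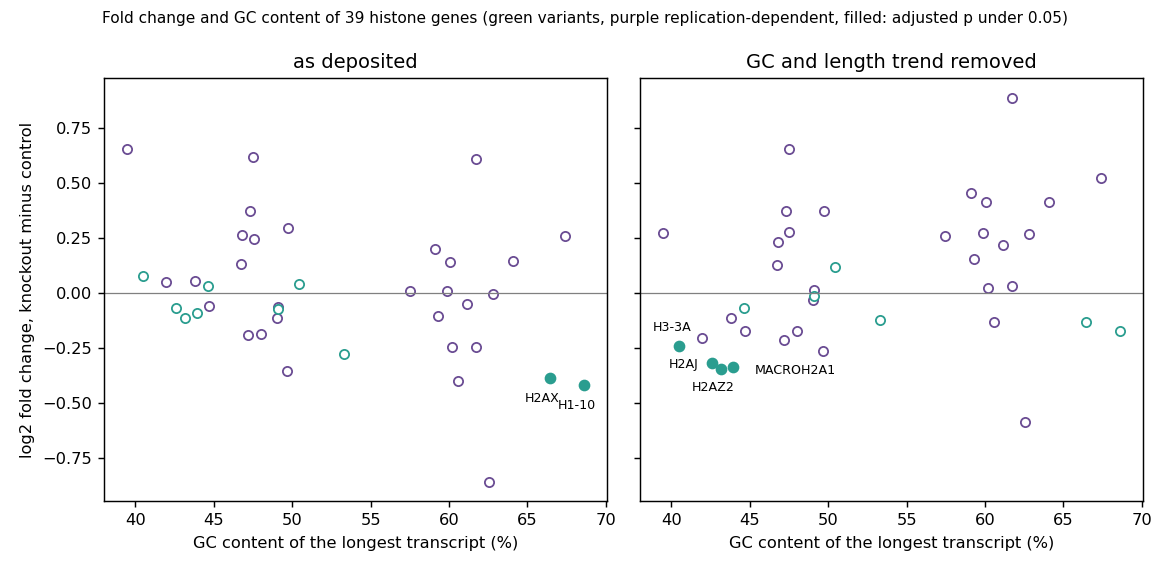
Log2 difference (knockout minus control) of 39 of the 40 tested histone genes against the GC content of the longest transcript, as deposited (left) and with the trend along GC content and length removed (right), with variants in green, replication-dependent genes in purple and filled points at an adjusted p under 0.05. The 2 filled genes on the left lie at 66.4% and 68.6% GC and the 4 on the right between 40.5% and 44.0%.

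No replication-dependent gene passed the threshold, with or without the trend. The median log2 difference of the 29 tested genes was 0.01, beside -0.02 over all genes, with 16 genes above 0 and 13 below. After removal of the trend it was 0.21, beside -0.02 over all genes. For 12 of the 34 genes of the class, the GC content and length used there came from coding sequence only. Before adjustment 2 of the 29 had a p-value under 0.05 in limma, H2BC15 and H2BC4. This share lies below the 33.2% of all genes that passed even after adjustment. On the recovered reads edgeR and DESeq2 called 0 of the 29 too. The 95% interval lay within a 1.5-fold change in 7 of the 29, and in the other 22 it reached beyond that size.

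Summed over all 34 genes, the control libraries held 14384, 9989 and 10374 normalized counts and the knockout libraries 11847, 11405 and 11271. The knockout libraries thus lay between control replicate 1 and the other controls. The means were 11583 ± 2434 and 11508 ± 301 (SD, n = 3 each). The same placement held for the sums of the H1, H2A, H2B and H4 genes. For H2A, made up mostly of H2AC6, the sums were 2009, 1211 and 1180 in the controls and 1478, 1423 and 1497 in the knockouts. For H3, whose 7 genes summed to only 185 to 337 counts per library, knockout replicate 2 lay below control replicate 2.

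Control replicate 1 was the highest library in 19 of the 29 tested replication-dependent genes and in 8 of the 11 variants, beside 17.5% of all genes tested. The median ratio of control replicate 1 to the mean of the other controls was 1.51 over the replication-dependent genes, 1.13 over the variants and 1.01 over all genes. The spread within groups followed: the median coefficient of variation of the replication-dependent genes was 34.9% in the controls and 13.5% in the knockouts, beside 10.1% and 8.21% over all genes. Its part in these results was not tested beyond leaving it out, and it has the fewest reads of the 6 libraries.

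**Figure D4:**
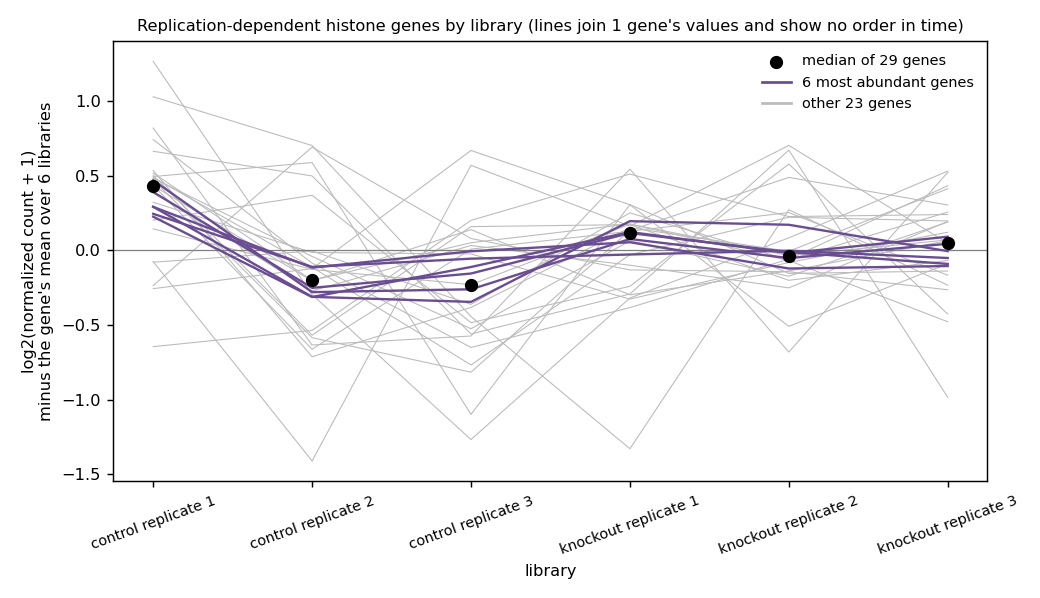
Log2(normalized count + 1) of the 29 tested replication-dependent genes in each library minus the gene's mean over the 6 libraries, with the 6 highest genes in purple, the others in grey and the median of all 29 as black points. The median stands at 0.43 in control replicate 1, at -0.20 and -0.23 in the other controls, and between -0.03 and 0.12 in the knockout libraries.

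The genes with the most reads show this placement one by one. H2BC12, the highest H2B gene, stood at 4927, 3850 and 4000 in the controls and at 4079, 4151 and 4012 in the knockouts. H1-2, a replication-dependent linker histone gene, stood at 4311, 2763 and 2954 in the controls and at 3565, 3263 and 3088 in the knockouts. In both genes the 3 knockout libraries lay below control replicate 1 and above the other controls, and the log2 differences were -0.05 (95% interval -0.25 to 0.14) and 0.01 (-0.25 to 0.27).

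H2AC6, the highest H2A gene of the class, stood at 1684, 1001 and 1014 in the controls and at 1281, 1172 and 1253 in the knockouts. H4C9, the highest H4 gene, stood at 835, 575 and 661 in the controls and at 777, 705 and 761 in the knockouts. H2BC5, an H2B gene, stood at 722, 475 and 464 in the controls and at 675, 664 and 587 in the knockouts. All 3 genes had the same placement as H1-2. In 7 of the 29 genes control replicate 1 lay above, and both other controls below, all knockout libraries, a pattern counted after the values were seen and met by 1.86% of all genes tested.

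Without control replicate 1, 4 replication-dependent genes were higher in the knockout libraries, a contrast of 2 control with 3 knockout libraries. H2BC4, at 58.0 and 49.3 in the remaining controls and 96.1, 123 and 108 in the knockouts, rose by 1.01 (SE 0.25, limma adjusted p = 0.00138). H2BC5 rose by 0.45 (SE 0.12, adjusted p = 0.00413), H2AC6 by 0.29 (SE 0.10, adjusted p = 0.022) and H2BC18 by 0.73 (SE 0.30, adjusted p = 0.0459). All 4 hold the stem-loop match shown above, which 16 of the 34 genes of the class hold (47.1%), and a link of the match to the rise was not tested. The 4 of 29 lie below the 22.6% of all genes called higher without that library. The median of the 29 genes was then 0.26, with 22 above 0, and H1-10 and H2AX remained lower, at -0.46 and -0.32, beside 19.6% of all genes.

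With the trend removed and control replicate 1 left out together, H1-2, H2BC12, H2BC4, H2BC5 and H3-3B were higher, and H1-10, H2AJ, H2AZ2, H3-3A and MACROH2A1 lower, beside 10.2% and 14.5% of all genes. H1-2 then rose by 0.46 and H2BC12 by 0.32, the latter with limma adjusted p = 8.21e-05. The annotated models of these genes hold coding sequence only and no stem-loop match. The GC content and length used to remove their trend may therefore be off. H3-3B rose by 0.17 (adjusted p = 0.00369). H2BC4 and H2BC5 are the replication-dependent genes that were called in both analyses without this library. H2AC6 went from 0.29 to 0.0001 (adjusted p = 0.999), whereas H2BC18 stood at 0.72, close to its earlier value, and missed the threshold (adjusted p = 0.0753).

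H2BC15 was the replication-dependent gene whose knockout libraries all lay above the controls, beside 23.9% of all genes. It stood at 38.8, 41.9 and 70.5 in the controls and at 87.7, 71.8 and 72.5 in the knockouts, and control replicate 3 nearly reached them. The log2 difference was 0.65 (SE 0.27, limma adjusted p = 0.0737), and without control replicate 3 it was 0.92 (adjusted p = 0.0262), when 14.3% of all genes were higher. It has the lowest GC content of the histone genes, 39.5%, and with the trend removed its difference was 0.27 (adjusted p = 0.602), or 0.08 with control replicate 1 left out as well (adjusted p = 0.882). Its annotated span of 27837760 to 27865798 on chromosome 6 covers HIST1H2AK, HIST1H2AL and a pseudogene, so its reads may not all be its own. H3C12, under the filter, stood at 17.2, 6.44 and 6.76 in the controls and at 2.11, 1.77 and 5.50 in the knockouts, also without overlap. When genes of any level were tested, it differed by -1.41 (SE 0.63, limma adjusted p = 0.0964).

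**Figure D5:**
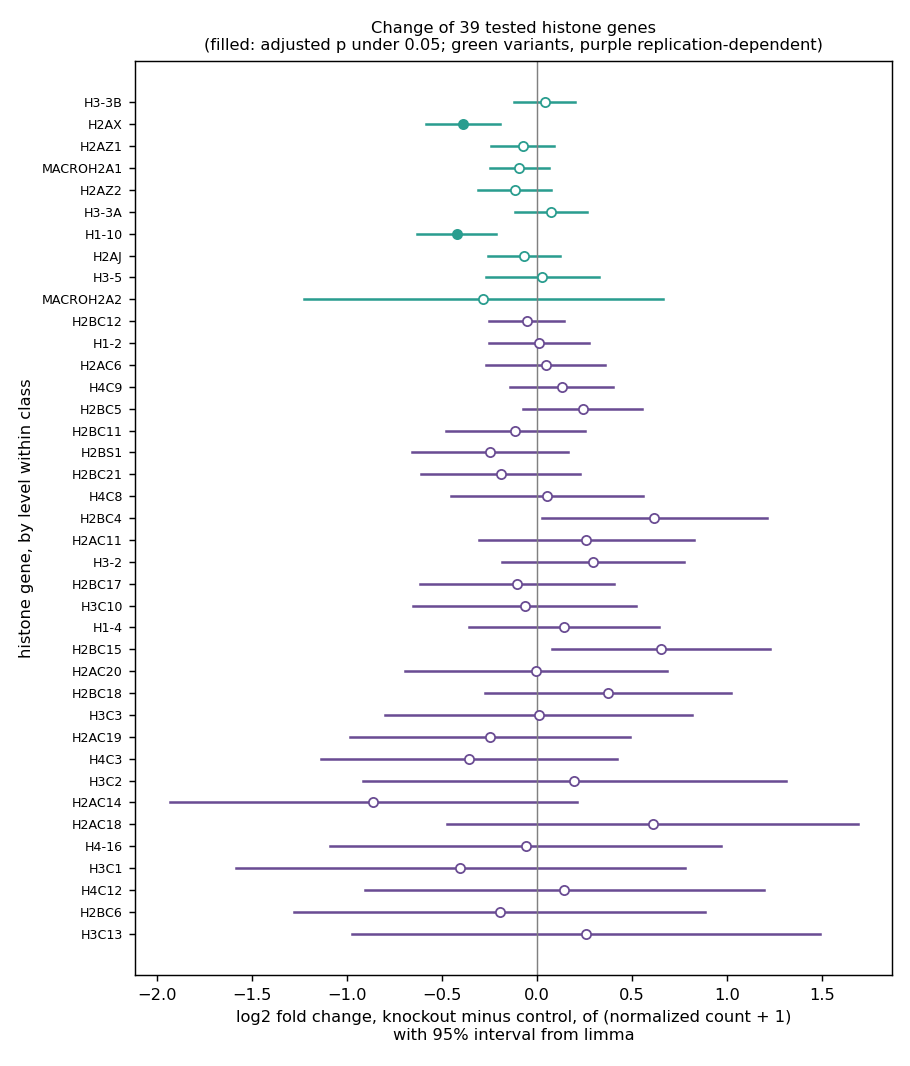
Log2 difference (knockout minus control) with its 95% interval from limma for 39 of the 40 tested histone genes, variants in green above and replication-dependent genes in purple below, each ordered by level, with filled points at an adjusted p under 0.05. Only H2AX and H1-10 are filled, and the intervals widen toward the low genes, as in H2AC14, whose difference of -0.86 spans -1.93 to 0.21.

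Genes that act on histone messages and proteins were counted in the same test. Of 13 genes for transcription and 3′ end processing of histone messages, 4 were higher and 2 lower, with a median of 0.18, beside 18.9% and 14.4% of all genes tested. The 2 lower lie near that share. TUT7, a uridylyltransferase that marks histone messages for decay, rose by 0.85 (limma adjusted p = 4.64e-05), from 656, 667 and 708 to 1353, 1171 and 1152. CPSF2, a subunit of the complex that cleaves the message, rose by 0.52 (adjusted p = 0.000794), and SYMPK and LSM10, a scaffold of that complex and a U7 snRNP protein, fell by 0.24 and 0.25. Removal of the trend left 1 higher, TUT7 at 0.50 (limma adjusted p = 0.00694), and 0 lower, beside 4.08% and 5.95% of all genes.

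Of 28 histone chaperone and deposition genes, 7 were higher and 4 lower, with a median of -0.01. The 4 lower lie near the 14.4% of all genes and the 7 higher somewhat above the 18.9%. ATRX, which deposits H3.3 together with DAXX, rose by 0.79 (limma adjusted p = 3.85e-05) and ANP32E, a chaperone that removes H2A.Z, by 0.51 (adjusted p = 0.000697). ASF1B, a chaperone of H3 and H4 in replicating cells, fell by 0.45 (adjusted p = 0.00101), and TONSL, which binds new histones at replication forks, also fell by 0.45 (adjusted p = 0.00273). Once the trend was removed, 1 gene was higher and 5 were lower, beside 4.08% and 5.95% of all genes. The lower count lies above its share. ATRX was the higher gene, at 0.31 (limma adjusted p = 0.0263), while ANP32E, ASF1B and TONSL did not pass. RBBP4, RBBP7, NAP1L1, EP400 and VPS72 were the lower genes.

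Markers of the cell cycle are given because the replication-dependent genes are used in S phase. Of 22 S phase genes, 1 was higher and 8 lower, with a median of -0.12. The count of lower genes is above the 14.4% of all genes and the count of higher genes below the 18.9%. CDT1 and MCM7, which act in the licensing of replication, fell by 0.49 and 0.39, and RRM1, a subunit of ribonucleotide reductase, rose by 0.30. Removing the trend gave 0 higher and 3 lower, beside 4.08% and 5.95% of all genes, and of the named genes CDT1 passed, at -0.26 (adjusted p = 0.031). The summed S phase counts were 163075, 143109 and 144685 in the controls and 132110, 130871 and 138489 in the knockouts. Control replicate 1 was the highest library in 15 of the 22 genes. Without that library, 5 were higher and 6 lower, with a median of -0.04. The 5 higher then lie near the 22.6% of all genes and the 6 lower above the 19.6%.

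Of 15 G2 and M phase genes, 4 were higher and 4 lower, with CENPF and TOP2A higher by 0.83 and 0.62 and AURKB and CDC20 lower by 0.33 and 0.35. Both counts lie above the shares of all genes. With the trend removed, CENPF was higher, at 0.44 (limma adjusted p = 0.0128), and CCNB1 and CDK1, which drive entry into mitosis, were lower, at -0.22 and -0.19 (adjusted p = 0.0495 and 0.0485). TOP2A, AURKB and CDC20 did not pass then. The G2 and M phase sums were 174339, 141919 and 132929 in the controls and 162762, 161398 and 157304 in the knockouts. Control replicate 1 was the highest library in 10 of the 15 genes. Without that library, 7 were higher and 3 lower, beside 22.6% and 19.6% of all genes, with a median of 0.16. Both cell cycle sums and the replication-dependent histone sum were thus highest in control replicate 1, and the part of the cell cycle in these values was not tested. RN7SL1, an RNA without a poly(A) tail, stood at 2051, 2000 and 2015 in the controls and at 2461, 2722 and 2609 in the knockouts, a rise of 0.36 (SE 0.086, limma adjusted p = 0.00481), or of 0.63 with the trend removed (adjusted p = 0.000718). Of the 8 such RNAs looked up, SNORA73B was the other one found. It stood at 11.9 to 30.2 and differed by -0.33 (limma adjusted p = 0.590).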

How the data were processed

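RNA-seq was analysed from 6 libraries, 3 per group, grouped by the titles in the labels. Per the submitters' processing notes, the authors worked on GRCh38.p13, and the tools named are DESeq2 1.30.1, featureCounts 1.5.0, STAR 2.4.0 and FastQC. Not given in the sources used here are their filters, strand setting and annotation release. The smallest normalized count was 0.886, which is 1 read in knockout replicate 2, so every listed gene has reads in every library. Histone genes without reads in some library are therefore absent from the 45. The authors deposited, per the file headers, a normalized count per library (a signal: reads divided by a size factor), the mean, the log2 fold change with its standard error, a Wald statistic (a score), a p-value and an adjusted p-value. Every value was a whole multiple of 1 step per library (100% within 0.01 of a whole number), so reads were recovered for edgeR and DESeq2.

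The tests were limma 3.58.1 with a mean-variance trend, on log2(normalized count + 1), in R 4.3.3, for genes with a mean of at least 10. Alternatives were edgeR 4.0.16, DESeq2 1.42.0, other pseudocounts and filters, quantile normalization, a replicate block, trend removal (splines with 5 terms each of GC percent and log2 length), each library left out, and, chosen after seeing the data, both of the last together. GENCODE 29 gave models for 45 histone genes, 43 by gene ID and 2 by an older symbol. RefSeq gave promoters for 39. The scripts were tested on simulated data.

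The named genes were KMT2C, histone genes past the threshold, the highest gene of each histone type, and up to 2 per direction from each list. Others were chosen after their values were seen: those called in an alternative, or without overlap, and those that illustrate the spread. One histone gene, counted in the classes, is not reported here by name. Members and lists were chosen with earlier results of these data known.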

Additional observations from a re-analysis of the deposited data

How the results depend on the processing

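The fall of H1-10 and H2AX passed the threshold in all 14 alternatives that kept the GC trend, at -0.54 to -0.33 and -0.48 to -0.29, and in 1 and 0 of the 8 that removed it. All genes called numbered 4859, 1463 with the trend removed, 1298 with the trend removed and the replicate block, and 2143 to 6168 with 1 library left out. With the trend removed they numbered 731 when control replicate 2 was left out and 886 for control replicate 3, and 372, 415 and 604 when a knockout library (1, 2 or 3) was, but 3602 when control replicate 1 was. Replication-dependent genes called higher were 0, and 0 to 4 with 1 library left out (4 without control replicate 1, 1 without control replicate 3), and 4 with the trend removed and control replicate 1 left out, when 1 variant was higher. Variants called lower were 2, but 4 with the trend removed, with or without the block, and then 5 and 4 without control replicate 1 or 2, and 1 each without knockout replicate 1 or 3. The median of the replication-dependent genes was 0.01, but 0.26 without control replicate 1 (-0.072 to 0.26 over single libraries left out), 0.32 with the trend removed as well, and 0.25 with the trend removed and without knockout replicate 3. The variant median was -0.09, and -0.18, -0.18 and -0.21 with the trend removed and without control replicate 1, control replicate 2 or knockout replicate 3. The causes were not tested.

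Some named genes changed sign in some settings. H2BC12 (-0.05) was 0.056 without control replicate 1 (-0.122 to 0.056 over single libraries left out), 0.21 with the trend removed and with the block added, and 0.32, 0.19, 0.13, 0.18, 0.21 and 0.26 with the trend removed and each library left out (called at 0.32, limma adjusted p = 8.21e-05). H3-3A went from 0.08 to -0.24 with the trend removed, where it was called. H2AZ1 (-0.07) was 0.0078 with quantile normalization, and 0.046 and 0.000601 with the trend removed and without control replicate 1 or knockout replicate 3. The replicate block called 6265 genes and the same 2 histone genes. Same-numbered deviations correlated at 0.07, 0.006 and 0.13. For control replicates 1 and 3 that was the highest value, whereas control replicate 2 correlated best with knockout replicate 1, at 0.03. These values do not settle whether the replicate numbers pair the libraries. The 25 replication-dependent genes under 100 counts include those with the widest intervals, and the part of depth in this was not tested.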
